A study of Mus musculus with 6 samples.

Results

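The inflammasome and IL-1 family genes described here are 10 mouse genes, Nlrp3, Aim2, Pycard, Casp1, Casp4, Il1a, Il1b, Il18, Il1rn and Il18bp. Their members among the data are the chromatin immunoprecipitation sequencing (ChIP-seq) peaks that carry one of these symbols as the nearest gene in 6 deposited peak lists. The rule found 152 of 134964 peaks, which merged into 58 of the 60856 regions that the 6 lists cover. Each of the 10 genes had at least 1 peak.

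The study asked how interleukin-4 (IL-4), the cytokine that polarizes macrophages toward the alternative state, acts on the binding of lineage-determining factors at macrophage enhancers. The cells in all groups were wild-type mouse bone marrow-derived macrophages (BMDMs), grown for 6 days in L929 supernatant as the source of M-CSF from the marrow of mice aged 8 to 12 weeks. For each factor, the control group had no IL-4 and the other group received 20 ng/ml IL-4 for 1 h. C/EBPα, IRF8 and JUNB were each precipitated in both conditions, with 1 sample per group, so no difference below has a replicate check or a test.

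Inflammasomes are cytosolic complexes in which a sensor such as NLRP3 or AIM2 recruits the adaptor ASC, the product of Pycard, and through it caspase-1. Active caspase-1 cleaves the precursors of IL-1β and IL-18 and also gasdermin D, whose fragment forms the membrane pores of pyroptosis, a lytic cell death. The related caspase-11, the product of mouse Casp4, senses cytosolic lipopolysaccharide. In macrophages the genes for the sensor NLRP3 and for IL-1β must be induced before the complex can act, which makes their enhancers a control point.

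The lists held 24486 and 24612 C/EBPα peaks, 37525 and 42076 IRF8 peaks, and 3940 and 2325 JUNB peaks in control and IL-4 samples, respectively. A peak score, as deposited, has no stated unit. It grows with sequencing depth and with enrichment, and read depth is unknown here, so a ratio of scores is not a fold of binding. The median score of the IL-4 list over that of the control list was 1.00 for C/EBPα (11.22 over 11.195), 0.929 for IRF8 (9.61 over 10.34) and 0.788 for JUNB (6.21 over 7.88). Peaks lay nearest to 6 of 8 macrophage marker symbols, a list that holds both Emr1 and Adgre1, names of the same gene. They lay nearest to 2 of 4 T cell, 2 of 3 B cell, 1 of 3 neutrophil, 1 of 2 dendritic cell and 0 of 2 fibroblast marker genes. These counts report on binding near these genes and not on their expression.

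C/EBPα and IRF8 had peaks at all 10 genes, and JUNB had peaks at 7 of them. C/EBPα had 34 control and 28 IL-4 peaks at the 10 genes, IRF8 had 41 and 39, and JUNB had 6 and 4. Of the 58 regions, 20 held IRF8 alone, 11 C/EBPα alone, 20 both, 5 all 3 factors and 2 IRF8 with JUNB. Peaks of 2 or more factors met in 27 regions over both conditions, 24 of them in control and 20 after IL-4. This count was not made over all regions of the lists, so it has no general share beside it. The regions had a median length of 348.5 bp, and 34 of 58 had their strongest peak within 10000 bp of a transcription start site (TSS). Peaks at these genes lay nearer to the TSS than peaks in general: 61.8% of the 34 C/EBPα control peaks and 65.9% of the 41 IRF8 control peaks were within 10000 bp, against 33.4% and 33.1% of all peaks of those lists. For JUNB 5 of 6 control peaks (83.3%) were, against 25.7% of its list.

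**Figure D1:**
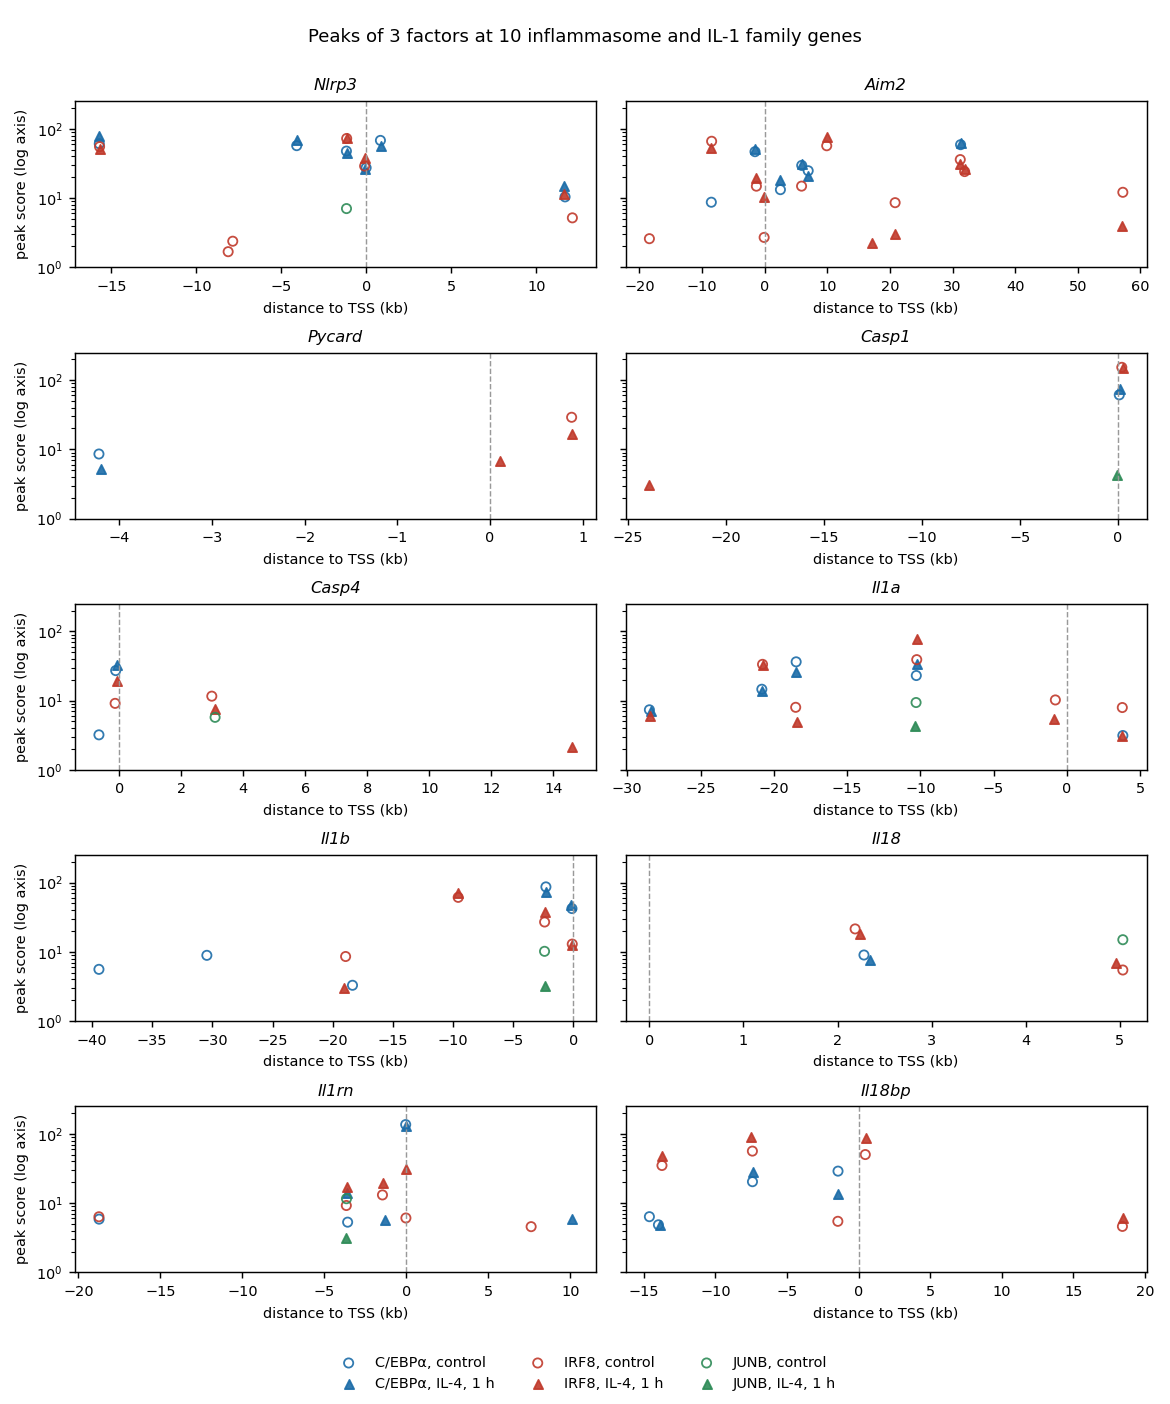
Peak score (log axis) against distance to the TSS in kb for every peak at the 10 genes, with control peaks as open circles and IL-4 peaks as filled triangles, coloured by factor. Circles and triangles lie in pairs at most strong sites, and the highest scores were 153.01 for IRF8 at Casp1 and 136.43 for C/EBPα at Il1rn.

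Most of these sites were listed in both conditions for C/EBPα and IRF8. Counting a peak as shared when it overlapped a peak of the other condition by at least 1 bp, 8 of 34 C/EBPα control peaks (23.5%) had no IL-4 peak, near the 21.4% of the whole list. For IRF8 this was 8 of 41 (19.5%), against 21.4% over all its control peaks. The JUNB share was 3 of 6 (50.0%), against 64.2% of all JUNB control peaks. In the other direction, 2 of 28 C/EBPα peaks (7.14%) were found only after IL-4, against 22.0% of that list, 6 of 39 IRF8 peaks (15.4%) against 30.4%, and 1 of 4 JUNB peaks (25.0%) against 39.2%. The control-only shares thus lay close to or below those of their lists, and the IL-4-only shares lay below them, on counts of 1 to 8 peaks. These shares are not matched for score. C/EBPα peaks at the 10 genes had median scores of 21.7 in control and 27.0 after IL-4, against 11.2 in both lists. For IRF8 the medians were 12.95 and 17.86, against 10.34 and 9.61, and for JUNB 9.78 and 3.72, against 7.88 and 6.21. No trait of these genes is read from the lower shares.

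Of the 28 peaks found in a single condition, 25 scored under 10, where single-condition peaks are common throughout the lists. Among all peaks that scored 10 or more, 3.78% of C/EBPα control and 5.89% of C/EBPα IL-4 peaks were found in 1 condition, 3.51% and 6.36% of IRF8 peaks, and 40.5% and 11.0% of JUNB peaks. The 3 exceptions at the 10 genes were a JUNB control peak in Il18 (14.98), an IRF8 control peak in Aim2 (14.88) and an IRF8 IL-4 peak in Nlrp3 (11.28).

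**Figure D2:**
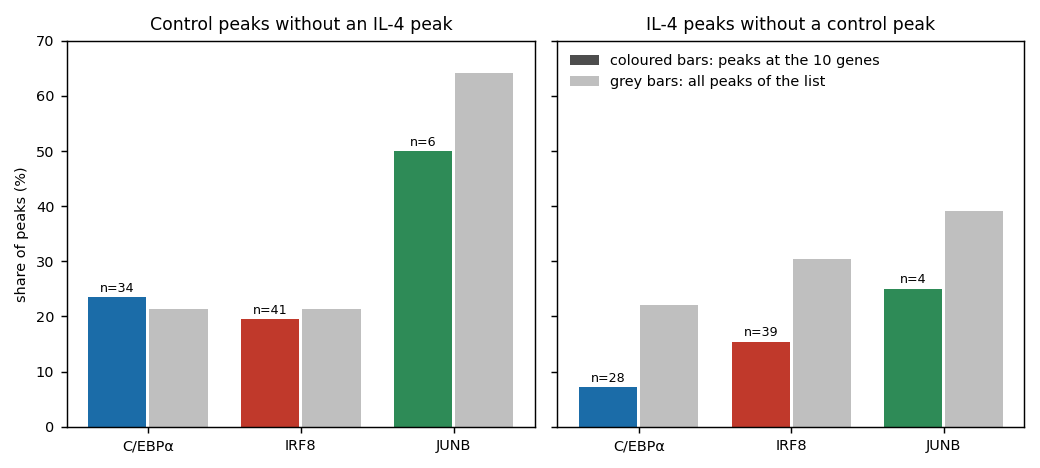
Share of peaks (%) without a peak in the other condition, for control peaks (left) and IL-4 peaks (right), with the 10 genes in colour and the whole list in grey, and n giving the number of peaks at the 10 genes. The coloured bar is below the grey bar in 5 of the 6 pairs, the exception being C/EBPα control peaks (23.5% against 21.4%). The bars are not matched for peak score.

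At sites found in both conditions, C/EBPα and IRF8 scores were centred close to equality and JUNB scores were lower after IL-4. The 26 shared C/EBPα sites had a median score ratio, IL-4 over control, of 1.02 (0.997 over all shared C/EBPα peaks), with 13 lower and 13 higher. Of these, 2 scored at least 1.5-fold lower and 1 at least 1.5-fold higher, where 17.8% and 17.7% of all shared peaks did. The 33 shared IRF8 sites had a median ratio of 1.10 (1.06 over all), with 15 lower and 18 higher. In IRF8 8 were at least 1.5-fold lower and 7 at least 1.5-fold higher, against 17.5% and 23.6% of all shared peaks. All 3 shared JUNB sites scored lower after IL-4, at a median ratio of 0.316, where the median over all 1406 shared JUNB peaks was 0.685. Each of the 3 was past 1.5-fold lower, as were 47.9% of all shared JUNB peaks, and 0 were past 1.5-fold higher, against 9.6%. Over all shared JUNB peaks 26.4% scored higher after IL-4, so the direction at these 3 sites is that of most shared JUNB peaks.

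**Figure D3:**
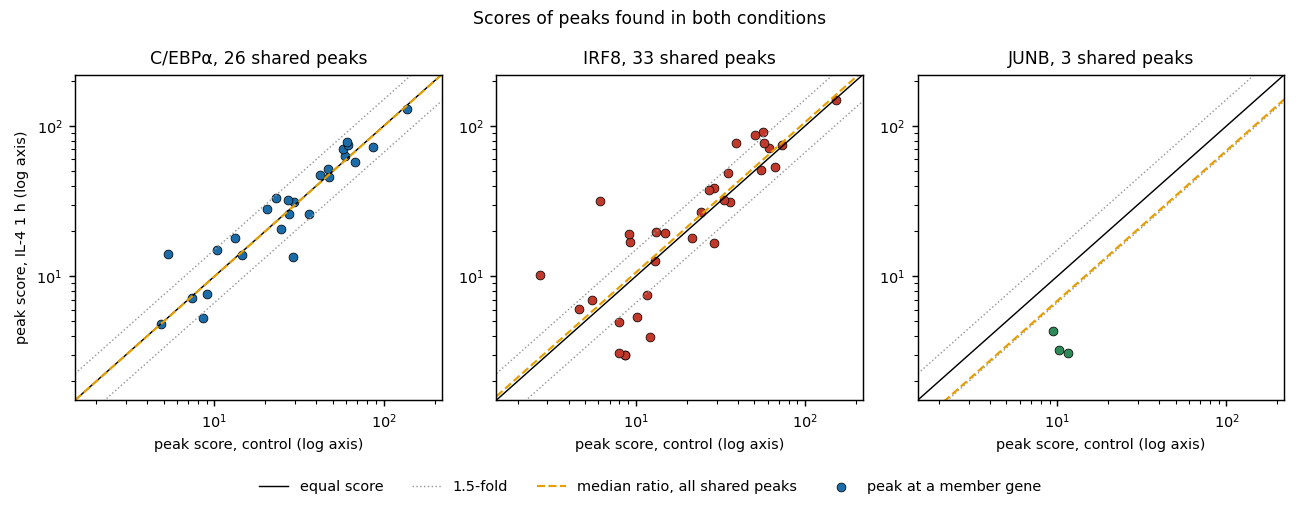
Peak score after IL-4 against control (both log axes) for each site at the 10 genes found in both conditions, 1 panel per factor, with lines for equal scores, for 1.5-fold and for the median ratio over all shared peaks of the factor. C/EBPα points follow the line of equal scores, IRF8 points scatter on both sides, and the 3 JUNB points lie below the dashed median of 0.685.

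The JUNB sites are where all 3 factors can be compared, and their sequences are shown for that reason. JUNB is a subunit of the AP-1 complex, whose recognition letters are TGANTCA. JUNB peaks lay at 7 regions of 7 genes, and all 10 JUNB peaks overlapped an IRF8 peak of the same condition. C/EBPα peaks were present at 5 of the 7 regions, all but those in Il18 and Casp4. The share of all JUNB peaks that overlap an IRF8 or C/EBPα peak was not counted. Whether such overlap is particular to these genes is therefore not known. The letters TGANTCA were found within the 200 bp around the JUNB peak centre at 5 of the 7 regions (Il1a, Il1b, Il1rn, Il18 and Casp4) and not in that window at Nlrp3 and Casp1. By list, 5 of 6 control peaks (83.3%) and 2 of 4 IL-4 peaks (50.0%) held them, beside 55.3% and 50.2% of all JUNB peaks, 17.2% of all C/EBPα control peaks and 14.4% of all IRF8 control peaks. The windows below are plus-strand sequence of mm10 (GRCm38), centred on the control peak (at Casp1 the IL-4 peak), shortened at Nlrp3 and Casp1 to the stretch outside annotated mRNA exons. Capitals mark TGANTCA (AP-1), GGAANNGAA (ETS-IRF composite) and GAGGAAGT (PU.1), searched on both strands together with TTGCNNAA (C/EBP) and GAAANNGAA (IRF), of which none was found in these windows. The PU.1 letters contain the GGAA with which the composite begins, so these letters can overlap.
Il1a, chr2:129320165-129320364: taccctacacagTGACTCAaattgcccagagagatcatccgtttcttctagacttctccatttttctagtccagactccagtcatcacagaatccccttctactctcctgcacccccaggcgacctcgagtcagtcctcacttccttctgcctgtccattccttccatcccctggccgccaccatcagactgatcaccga
Il1b, chr2:129373401-129373600: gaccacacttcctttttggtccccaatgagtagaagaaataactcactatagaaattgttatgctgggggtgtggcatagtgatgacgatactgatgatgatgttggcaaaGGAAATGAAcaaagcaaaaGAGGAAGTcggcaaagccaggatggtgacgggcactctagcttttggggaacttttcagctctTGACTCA
Il1rn, chr2:24341539-24341738: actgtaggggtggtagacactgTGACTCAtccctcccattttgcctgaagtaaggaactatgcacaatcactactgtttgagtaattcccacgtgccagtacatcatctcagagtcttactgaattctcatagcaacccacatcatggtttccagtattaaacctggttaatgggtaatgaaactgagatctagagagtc
Il18, chr9:50570302-50570501: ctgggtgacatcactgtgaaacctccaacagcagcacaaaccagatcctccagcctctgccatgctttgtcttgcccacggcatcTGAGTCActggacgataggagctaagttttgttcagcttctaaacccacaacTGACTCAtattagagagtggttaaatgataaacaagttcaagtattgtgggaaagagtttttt
Casp4, chr9:5311849-5312048: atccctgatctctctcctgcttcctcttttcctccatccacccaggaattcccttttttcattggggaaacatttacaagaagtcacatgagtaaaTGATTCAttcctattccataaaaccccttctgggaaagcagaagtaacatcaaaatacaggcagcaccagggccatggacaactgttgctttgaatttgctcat
Casp1, chr9:5298389-5298516: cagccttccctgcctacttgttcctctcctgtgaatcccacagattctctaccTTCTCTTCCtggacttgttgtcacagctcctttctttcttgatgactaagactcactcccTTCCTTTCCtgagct
Nlrp3, chr11:59541420-59541567: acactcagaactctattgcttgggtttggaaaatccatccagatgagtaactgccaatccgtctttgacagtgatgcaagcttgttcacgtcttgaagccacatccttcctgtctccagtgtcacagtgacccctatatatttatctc

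In Il18 both copies of the letters lay near the JUNB centre, at offsets of -11 and 41 bp, and in Casp4 they lay at the centre itself (offset 0). At Il1a and Il1rn they were at -84 and -74 bp, and in the Il1b window they took the last 7 bases, at 97 bp. The Il1b window also held the composite letters at 16 bp and the PU.1 letters at 35 bp, and the Casp1 window held the composite letters at -42 and 18 bp on the minus strand. GGAANNGAA was present in 13.2% of all JUNB control and 13.6% of all JUNB IL-4 peaks, and GAGGAAGT in 10.2% and 9.46%. TTC and GAA separated by 3 or 4 bases, the type of site that STAT6 binds, were found near the JUNB centre at 1 of the 7 regions, Casp4, and in 12.2% of all JUNB control peaks. These matches describe the letters in each window and do not show which factor bound them.

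Nlrp3, the sensor that responds to a broad range of danger signals, had 9 regions on chromosome 11. C/EBPα and IRF8 marked them densely in both conditions, and JUNB was present at a single one and in control only. The JUNB region, chr11:59541357-59541703 at -1156 bp, was intergenic by the deposited annotation and scored 7.05 for JUNB in control with no IL-4 peak. C/EBPα scored 47.72 and 45.52 there in control and IL-4 cells, and IRF8 72.65 and 74.86. Where the JUNB peak was not listed after IL-4, the IL-4 over control ratios of the other factors were thus close to 1, at 0.954 for C/EBPα and 1.03 for IRF8. A newer RefSeq transcript, NM_001359638, starts at position 59541569 inside this region, so that by current annotation it is also a promoter.

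The strongest Nlrp3 region was chr11:59526808-59527224 at -15738 bp, where C/EBPα scored 61.05 and 78.59 and IRF8 55.24 and 51.22. At the deposited promoter, chr11:59542415-59542836, C/EBPα scored 27.42 and 26.05 and IRF8 29.0 and 38.55. These regions had peaks of both factors in both conditions. C/EBPα alone was found at -4092 bp (57.19 and 69.76) and in intron 2 at 830 bp (68.12 and 57.33). In intron 5, chr11:59554180-59554503 at 11615 bp, C/EBPα scored 10.4 and 15.04, and IRF8 had a peak only after IL-4 (11.28). The nearest IRF8 control peak, at 12128 bp, scored 5.18 and was absent from the IL-4 list. The other IRF8 control-only peaks of Nlrp3 were weak, at 1.68 and 2.38.

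Aim2, the sensor of cytosolic double-stranded DNA, had the most regions of the 10 genes, 13 on chromosome 1, and no JUNB peak in either condition. IRF8 had 10 control and 9 IL-4 peaks there, beside 6 and 5 for C/EBPα. The IRF8 lists are longer in general, at 37525 and 42076 peaks beside 24486 and 24612, so no preference is read from these counts. The top score of the gene was that of IRF8 in intron 2, chr1:173430312-173430758 at 9935 bp. It was 57.02 in control and 77.0 after IL-4, with no C/EBPα peak. At chr1:173411870-173412422, -8458 bp, IRF8 scored 66.18 and 53.17, and a C/EBPα control peak of 8.71 had no IL-4 counterpart. Both factors were found in both conditions at chr1:173418884-173419552, -1531 bp, with 46.79 and 51.41 for C/EBPα and 14.86 and 19.51 for IRF8. In intron 1, chr1:173426363-173426700 at 5920 bp, C/EBPα scored 29.64 and 31.25 while IRF8 was listed in control only (14.88).

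The Aim2 promoter, chr1:173420357-173420777, held IRF8 alone, at 2.7 in control and 10.23 after IL-4, a ratio of 3.79 at the 98.4th percentile of all shared IRF8 peaks. The control peak ranked only 36754 of 37525 in its list, so the ratio starts from a score near the lowest. The sequence before the first exon is shown because this ratio was among the largest at the 10 genes. Its capitals mark the PU.1 letters GAGGAAGT, 35 bp upstream of the peak centre, which are found in 13.5% of all IRF8 control peaks.
Aim2 promoter, chr1:173420431-173420570: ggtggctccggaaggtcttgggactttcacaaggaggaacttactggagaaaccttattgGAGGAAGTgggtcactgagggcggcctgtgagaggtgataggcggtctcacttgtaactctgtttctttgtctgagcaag

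Pycard, which encodes the adaptor ASC, had 3 regions on chromosome 7, the fewest peaks of the 10 genes (5 over all lists) and no JUNB. IRF8 in intron 2, chr7:127992822-127993143 at 880 bp, scored 29.06 in control and 16.57 after IL-4, a ratio of 0.570. An IRF8 peak of 6.73 over the first exon, 109 bp from the TSS, was found only after IL-4. The C/EBPα site at -4221 bp also scored lower after IL-4, 8.56 against 5.25. Both shared Pycard sites were thus past 1.5-fold lower.

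Casp1, which encodes the protease that matures IL-1β and IL-18, carried the strongest IRF8 peak of the 10 genes at its start. In the region chr9:5298334-5299222 IRF8 scored 153.01 in control and 149.85 after IL-4, and C/EBPα 61.26 and 75.04. A JUNB peak of 4.22 was present there only after IL-4, at -29 bp, the single JUNB peak of the 10 genes within 1000 bp of a TSS by the deposited distances and the single one found only after IL-4. It ranked 1744 of 2325 in its list. The other Casp1 region held an IRF8 IL-4 peak of 3.02.

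Casp4, which encodes the caspase that senses cytosolic lipopolysaccharide, had its strongest region at the promoter, chr9:5308531-5308996. C/EBPα scored 27.13 and 32.3 there, and IRF8 9.12 and 18.98, a ratio of 2.08. In intron 1, chr9:5311651-5312046 at 2982 bp, the other side of the pattern was seen: IRF8 scored 11.59 and 7.46, and JUNB 5.73 in control with no IL-4 peak. IRF8 scores after IL-4 were therefore higher at the promoter and lower at the JUNB site of this gene. A weak C/EBPα control peak (3.2) and a weak IRF8 IL-4 peak (2.14) made up the rest.

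At the cytokine genes, more of the shared IRF8 sites scored lower after IL-4 than higher. Il1a, Il1b and Il18 together had 11 shared IRF8 sites, of which 7 were lower and 4 higher, 4 past 1.5-fold lower and 1 past 1.5-fold higher. The 4 past 1.5-fold lower scored only 7.94 to 10.22 in control and 3.0 to 5.37 after IL-4. The 2 sites with the highest control scores were higher after IL-4, Il1b at 61.3 and 71.76 and Il1a at 39.06 and 76.86. The lower counts thus rest largely on sites of low score. Over all shared IRF8 peaks 55.4% scored higher, 17.5% were past 1.5-fold lower and 23.6% past 1.5-fold higher. Their 7 shared C/EBPα sites split into 5 lower and 2 higher, all within 1.5-fold, where 17.8% and 17.7% of all shared C/EBPα peaks were past it. No IL-4 peak was found for 4 of their 11 C/EBPα control peaks, beside 21.4% of the whole list. All 4 of these scored under 10. JUNB had 3 control peaks at the cytokine genes, 1 at each gene, of which 2 were shared and scored lower.

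Il1a, which encodes the IL-1 form that is active without cleavage, had its main site upstream at chr2:129319847-129320572, -10216 bp. All 3 factors were present there in both conditions, and their scores went in opposite directions. JUNB scored 9.38 and 4.32, a ratio of 0.461, while IRF8 scored 39.06 and 76.86, a ratio of 1.97, and C/EBPα 23.03 and 33.42, a ratio of 1.45. At the promoter, -787 bp, IRF8 alone was found and scored lower after IL-4 (10.22 and 5.37). The region chr2:129306007-129306377 at 3780 bp, within a noncoding exon of Gm14023, had IRF8 scores of 7.94 and 3.08 and a C/EBPα control-only peak of 3.13. Farther upstream both factors met at -20768 bp and -18474 bp, with IRF8 ratios of 0.963 and 0.617.

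Il1b, which encodes IL-1β, the main secreted product of the inflammasome, had 7 regions on chromosome 2. The strongest was chr2:129373153-129373691 at -2266 bp, in intron 2 of the antisense transcript Il1bos, and all 3 factors were found there in both conditions. JUNB scored 10.18 in control and 3.22 after IL-4, IRF8 27.0 and 37.51, and C/EBPα 86.83 and 72.81, the highest C/EBPα score of the cytokine genes. JUNB was thus lower to a ratio of 0.316, and IRF8 higher to 1.39. At the promoter, chr2:129371014-129371453, C/EBPα scored 42.25 and 47.44 and IRF8 12.95 and 12.7, close to equal.

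The upstream Il1b element that the study assayed by enhancer RNA and ChIP-qPCR had a peak of IRF8 and of neither other factor. The primer pairs named for -9.7 and -7.7 kb each matched the genome once, at chr2:129380721-129380813 and chr2:129380757-129380830, so their products shared 57 bp. Both lay in the region chr2:129380199-129381266, where IRF8 scored 61.3 in control and 71.76 after IL-4. The nearest C/EBPα and JUNB peaks were those at -2266 bp. C/EBPα control-only peaks of 5.59, 8.91 and 3.29 lay beyond, at -39438, -30463 and -18351 bp, and an IRF8 site at -18923 bp scored 8.57 and 3.0.

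Il18, which encodes the other cytokine that caspase-1 matures, had 2 regions, both in intron 1. The region chr9:50570238-50570550 at 5033 bp carried the strongest JUNB peak of the 10 genes, 14.98 in control, ranked 555 of 3940, with no IL-4 peak. IRF8 at that site was weak, 5.47 in control and 6.9 after IL-4, and the nearest C/EBPα peak centre was 2752 bp away. The region chr9:50567366-50567822 at 2187 bp had IRF8 scores of 21.45 and 17.86 and C/EBPα scores of 9.01 and 7.62. Deposited distances for Il18 were counted from a start at 50565368, and current RefSeq places the start 10668 bp upstream, at 50554700.

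A further JUNB site near Il18 scored higher after IL-4, and it is not among the 152 peaks because its nearest gene is Sdhd. The ChIP-qPCR product that the study named for 25 kb from the Il18 start lay at chr9:50591005-50591080, inside peaks of all 3 factors in both conditions. JUNB scored 14.98 in control and 17.61 after IL-4, a ratio of 1.18, C/EBPα 55.71 and 69.79, and IRF8 23.79 and 21.69. This JUNB peak and the intronic JUNB peak of Il18 thus had the same control score of 14.98, and after IL-4 one was listed at 17.61 and the other was not listed. The 200 bp around its centre, 25771 bp from the deposited start, are shown for comparison with the intronic Il18 window, and capitals mark TGANTCA.
Il18 downstream site, chr9:50591040-50591239: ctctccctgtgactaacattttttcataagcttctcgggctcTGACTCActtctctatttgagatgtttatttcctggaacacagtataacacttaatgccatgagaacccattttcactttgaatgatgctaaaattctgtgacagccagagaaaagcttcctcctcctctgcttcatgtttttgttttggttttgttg

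This window held 1 copy of the AP-1 letters, 54 bp before the centre, where the intronic window held 2. It also contained TTC and GAA spaced by 3 bases, which the intronic window did not. Spaced TTC and GAA were present in 12.2% of all JUNB control and 18.6% of all JUNB IL-4 peaks.

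**Figure D4:**
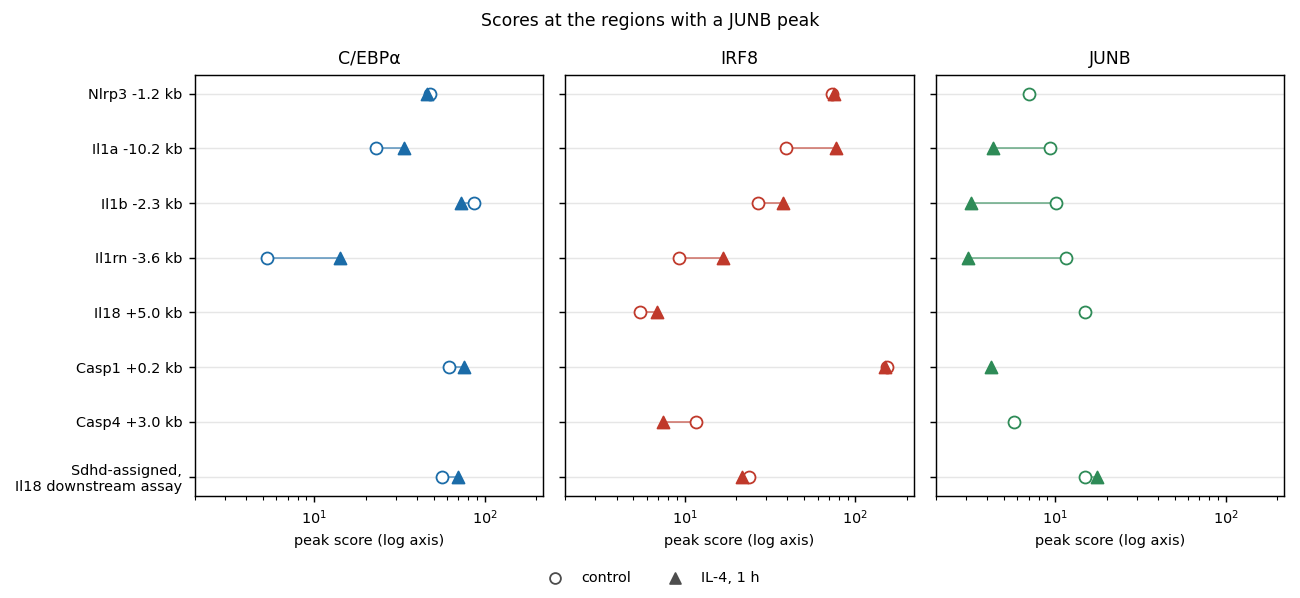
Peak scores (log axis) at the 7 regions with a JUNB peak and at the Sdhd-assigned site of the Il18 assay, 1 panel per factor, with control as open circles and IL-4 as filled triangles, joined where both exist. JUNB triangles lie to the left of the circles at Il1a, Il1b and Il1rn and to the right at the Sdhd-assigned site (14.98 and 17.61). IRF8 triangles lie to the right at Il1a, Il1b, Il1rn and Il18 and to the left at Casp4. They lie close to the circles at Nlrp3, Casp1 and the Sdhd-assigned site.

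At the genes of the natural inhibitors, every IRF8 site shared by both conditions scored higher after IL-4. Il1rn and Il18bp had 7 shared IRF8 sites and all 7 scored higher after IL-4, between 1.31 and 5.18 times the control score, with 4 past 1.5-fold. Over all shared IRF8 peaks 55.4% scored higher and 23.6% were past 1.5-fold. The counts rest on 2 genes and on 1 sample per group, and 3 other IRF8 control peaks of these genes, at 6.35, 4.57 and 5.46, had no IL-4 peak. C/EBPα did not follow one direction at the inhibitor genes: of 5 shared sites 3 were lower and 2 higher.

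Il1rn, which encodes the IL-1 receptor antagonist, held the largest score ratios of the set in the C/EBPα and IRF8 lists and the lowest in the JUNB list. In the region chr2:24345048-24345530, at the starts of the transcripts NM_001159562 and NM_001039701, IRF8 scored 6.1 in control and 31.62 after IL-4. This ratio of 5.18 lay at the 99.5th percentile of all shared IRF8 peaks. The IRF8 control peak was nearest to the start of NM_001039701, at -28 bp. The IRF8 IL-4 peak was nearest to that of NM_001159562, at -43 bp. C/EBPα, nearest to NM_001159562 in both conditions, scored 136.43 and 130.36, the highest C/EBPα values at the 10 genes. This promoter region was thus marked by C/EBPα in both conditions, and the score of IRF8 differed. Within the gene, chr2:24341478-24341835 at -3603 bp held all 3 factors: JUNB scored 11.58 and 3.09, a ratio of 0.267, while C/EBPα scored 5.31 and 14.15, a ratio of 2.66, and IRF8 9.24 and 16.84, a ratio of 1.82. The opposite directions of JUNB and IRF8 at this site match those at Il1a and Il1b.

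At chr2:24335172-24335715, -1444 bp from the start of the longer transcript NM_031167, IRF8 scored 13.13 and 19.55, and a C/EBPα peak of 5.62 was present only after IL-4. Another C/EBPα peak found only after IL-4, at 10125 bp, scored 5.92. These were the only C/EBPα IL-4-only peaks of the 10 genes. A distal region at -18750 bp had C/EBPα (5.87) and IRF8 (6.35) in control and neither after IL-4.

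Il18bp, which encodes the soluble protein that captures IL-18, had 6 regions on chromosome 7 and no JUNB. Several lie inside the neighbouring genes Rnf121 and Numa1, so their assignment to Il18bp rests on the nearest start. The strongest, chr7:102025285-102025883 at -7492 bp in intron 6 of Rnf121, had IRF8 scores of 56.46 and 91.63 and C/EBPα scores of 20.4 and 27.83. At chr7:102017449-102017895, 488 bp into Il18bp, IRF8 alone scored 50.33 and 86.44, a ratio of 1.72. A 30-base stretch of that region is shown because it holds 2 overlapping copies of the IRF letters GAAANNGAA on the minus strand, in capitals. The copies lie 6 and 12 bp from the IRF8 centre. The deposited annotation places this stretch in intron 1. The newer annotation used for sequences covers the place with an exon or untranslated region, so the window is not printed in full. GAAANNGAA occurs in 16.1% of all IRF8 control peaks. Spaced TTC and GAA were also found in the 200 bp around this centre, at -44 and -17 bp and outside the printed stretch. They occur in 12.7% of all IRF8 control peaks, and near the strongest peak of 7 of the 58 regions (12.1%).
Il18bp intron 1, chr7:102017678-102017707: cacctattTTCACTTTCACTTTCttagcta

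Just upstream of Il18bp, chr7:102019411-102019761 at -1435 bp by the end of Rnf121, the C/EBPα score was lower after IL-4, 29.0 against 13.36 (ratio 0.461), and an IRF8 control peak of 5.46 had no IL-4 counterpart. At -13759 bp C/EBPα was close to equal (4.86 and 4.82) and IRF8 scored 34.99 and 48.64. In the same gene, then, IRF8 scores were higher at 4 sites, and the 1 C/EBPα site past 1.5-fold was lower.

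By the deposited distances, 9 of the 10 genes had a peak within 1000 bp of a TSS, all but Il18, and IRF8 was among the factors at each of the 9. Of the 9 shared IRF8 sites within 1000 bp, 5 scored higher and 4 lower after IL-4, with 4 past 1.5-fold higher (Il1rn, Aim2, Casp4 and Il18bp) and 2 past 1.5-fold lower (Pycard and Il1a). Over all 2784 shared IRF8 peaks within 1000 bp 66.2% scored higher, 31.8% were past 1.5-fold higher and 12.2% past 1.5-fold lower. The median ratio there was 1.33, beside 1.21 over all of them. C/EBPα had 6 shared sites within 1000 bp, at ratios from 0.842 to 1.22, and the median was 1.04 beside 1.05 over all.

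For C/EBPα the letters of its own site had somewhat lower shares at these genes than in the lists, on counts of 9 and 7 peaks. The 2 C/EBPα counts are not independent, because 26 sites were shared between the conditions, and the difference was not tested. For IRF8 the letters were near the lists' shares. TTGCNNAA was found near the centre of 9 of 34 C/EBPα control peaks (26.5%) and 7 of 28 C/EBPα IL-4 peaks (25.0%), beside 34.3% and 33.3% of the lists. GGAANNGAA was near 9 of 41 IRF8 control peaks (22.0%), beside 21.2%, and 6 of 39 IRF8 IL-4 peaks (15.4%), beside 20.0%. GAAANNGAA was near 8 of 41 IRF8 control peaks (19.5%), beside 16.1%, and 6 of 39 IRF8 IL-4 peaks (15.4%), beside 15.7%. At the assayed Il1b element and at the Nlrp3 region with JUNB, none of the 6 kinds of letters was found in the 200 bp around the strongest peak.

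The primer pair that the study named for -1.3 kb of Nlrp3 matched chr11:59541824-59541910, -819 bp from the deposited start. This product overlapped no peak of any factor, and its centre was 353 bp (C/EBPα), 337 bp (IRF8) and 348 bp (JUNB) from the nearest control peak centres, all in the region at -1156 bp.

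Other genes of the pathway were examined from a list of 49 symbols that includes further sensors, gasdermins, IL-1 and IL-18 receptors and signalling adaptors. Some genes stand in it under an older and a newer symbol, such as Dfna5 and Gsdme. The symbols without a peak therefore include second names of the same gene. Of these, 38 had a peak in at least 1 list. Their C/EBPα peaks were control-only in 15 of 97 and IL-4-only in 14 of 96 cases (15.5% and 14.6%), their IRF8 peaks in 23 of 116 and 26 of 119 (19.8% and 21.8%), and their JUNB peaks in 13 of 18 and 5 of 10 (72.2% and 50.0%). Over the whole lists 21.4% of C/EBPα control and 22.0% of C/EBPα IL-4 peaks were in a single condition. The whole IRF8 lists gave 21.4% and 30.4%, and the JUNB lists 64.2% and 39.2%. C/EBPα and IRF8 shares at the pathway genes were thus below those of the lists, and JUNB shares above them. The IRF8 control share was close to that of its list, and the JUNB shares rest on 18 and 10 peaks. No trait of the pathway genes is read from these differences, which were not tested.

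Single-condition peaks of 2 or more factors were seen at 19 of the 38 listed genes with a peak (50.0%), and of all 3 factors at 7 (18.4%). Over all 14930 genes with a peak these shares were 35.3% and 9.79%, and this count does not adjust for the number of peaks per gene. Among the latter, Il1rap, the co-receptor of the IL-1 receptor, had single-condition peaks after IL-4 and 0 in control. Its top scores in control and IL-4 were 16.49 and 40.02 for C/EBPα and 15.14 and 26.75 for IRF8, and JUNB was listed after IL-4 alone (5.89). Il1rl1, which encodes the IL-33 receptor, had top scores of 26.46 and 43.22 for C/EBPα and 66.85 and 91.12 for IRF8, with 3 JUNB control peaks and 1 IL-4 peak. Il1r1, which encodes the signalling IL-1 receptor, had IRF8 top scores of 60.14 and 57.07. At Nlrp1a, a sensor gene, IRF8 scored 160.7 and 166.61 and a JUNB control peak of 5.73 had no IL-4 peak.

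The remaining 3 of the 7 were Dfna5, Casp8 and Irak2. Dfna5, which encodes gasdermin E, reached the highest IRF8 score of the pathway list, 199.14 in control and 203.27 after IL-4, with JUNB top scores of 21.72 and 14.77. Casp8, an apoptotic caspase that can also act in inflammasomes, had IRF8 top scores of 174.24 and 194.74 and a JUNB control peak of 7.15 with no IL-4 peak. Irak2, a kinase of IL-1 receptor signalling, had C/EBPα top scores of 78.58 and 100.35 and a JUNB control peak of 7.11 with no IL-4 peak.

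The 12 genes with single-condition peaks of exactly 2 factors showed both directions. Nlrp1b, which encodes another sensor, had 4 IRF8 and 2 JUNB control-only peaks, the JUNB top score being 14.09, and an IRF8 top score of 54.94 and 75.48. Mefv, which encodes the sensor pyrin, scored 80.58 and 111.99 for C/EBPα and had 2 JUNB control peaks of which 1 was control-only (top scores 15.69 and 7.51). Naip2, a receptor for bacterial secretion proteins, had IRF8 top scores of 117.0 and 127.12 and a JUNB control-only peak of 6.73. Naip1 of the same family had C/EBPα top scores of 34.09 and 18.13.

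Nek7, which encodes a kinase that binds NLRP3, had C/EBPα top scores of 14.48 and 33.51 and IRF8 136.9 and 146.73. Txnip, which encodes a thioredoxin-binding protein, had IRF8 9.22 and 27.19. The channel genes had low scores: P2rx7, the ATP receptor, had C/EBPα 8.59 and 15.5, and Panx1, a pannexin, had IRF8 15.33 and 22.19.

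Il1r2, the decoy receptor of IL-1, had IRF8 top scores of 54.3 and 78.48, and Il18rap, a subunit of the IL-18 receptor, had C/EBPα 29.84 and 30.89 and JUNB 6.79 and 5.96. Il33, which encodes the alarmin IL-33, had IRF8 80.94 and 95.99 and a JUNB peak after IL-4 alone (3.22). Irak3, which encodes an inhibitory kinase of the pathway, had C/EBPα 83.27 and 75.32.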

How the data were processed

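ChIP-seq was measured in 6 samples, 1 per group (C/EBPα, IRF8 and JUNB, each in control and IL-4-treated BMDMs). Cells were double cross-linked with DSG and formaldehyde. Per the labels, the authors aligned reads to mm10 with BWA 0.7.10, used SAMtools 0.1.19, called peaks with MACS2 2.0.10 and annotated them with HOMER 4.2, and their methods name removal of ENCODE blacklisted regions. The deposited values used here are the Peak Score column, whose unit is not named, and they were treated as a score without unit. Peaks were called per sample. Read depth and the control library of the peak calling are not given in the sources used here, and the labels name 2 library kits without saying which sample had which. Repeated cultures behind a group were not analysed here.

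Peaks with a member as Gene Name were taken from each list. Peaks overlapping by at least 1 bp between conditions were shared, score ratios used one-to-one pairs (largest overlap first), and 1.5-fold was the cut-off. No test was run with 1 sample per group, and no interval can be given for a score. Regions are merged peaks of the 6 lists. Sequences and starts came from the RefSeq annotation of GRCm38.p6, and motifs were searched in 200 bp. The deposited start lay within 100 bp of a RefSeq start for 145 of 152 peaks, the 7 others being those of Il18, and 0 peaks ran past a chromosome end. The study's primers were placed by exact match. All members are described. Coordinates are given for each gene's top region, regions of 2 or more factors within 10000 bp, regions with a single-condition peak of 10 or more, and assayed regions, and other regions that the text turns on were chosen after their values were seen. The members, gene lists and the grouping by role were chosen with earlier results of these data known. Overlaps were tested on simulated data and against bedtools 2.31.1. Python 3.11.15, pandas 2.3.3 and numpy 2.4.6 were used. Alternatives varied the overlap, score limit, list length, gene assignment and score scale.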

Additional observations from a re-analysis of the deposited data

Results flagged for a closer look

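At 3 regions the JUNB score was lower after IL-4 while another factor's was higher, and with 1 sample per group this difference in direction was not tested. How often it occurs over all regions was not counted. At the Il1a region at -10216 bp the IL-4 over control score ratio was 0.461 for JUNB, beside 1.97 for IRF8 and 1.45 for C/EBPα. At the Il1b region at -2266 bp it was 0.316 for JUNB and 1.39 for IRF8, and C/EBPα went the way of JUNB at 0.839. At the Il1rn region at -3603 bp it was 0.267 for JUNB, 1.82 for IRF8 and 2.66 for C/EBPα. The score median of the whole JUNB list was also lower after IL-4, with a ratio of 0.788 between the lists. Over all shared peaks 26.4% of JUNB and 55.4% of IRF8 peaks scored higher after IL-4. Where the JUNB peak was control-only, IRF8 scored lower after IL-4 at Casp4 (11.59 and 7.46). It did not at Il18 (5.47 and 6.9) or Nlrp3 (72.65 and 74.86).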

How the results depend on the processing

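Over 13 results, 83 values were recomputed under alternatives, of which 68 were labelled the same and 15 moved. A count was the same if it stayed within 1.5-fold. A median log2 ratio was the same if it kept its sign and stayed within 1.5-fold, and a percentile difference if it kept the sign alone. A reversal could be called only for the JUNB median, since no other main median was past 1.5-fold, so the 0 reversals say nothing about the other results. Limiting the lists to scores of 5 or more gave 5 C/EBPα control-only peaks in place of 8, 6 JUNB control-only peaks in place of 3, 0 JUNB IL-4-only peaks in place of 1, and left no shared JUNB site, so no JUNB ratio (shared sites past 1.5-fold were 9 for IRF8 and 0 for JUNB). The IL-4 peaks at Il1a, Il1b and Il1rn all scored under that limit. Cutting both lists of a factor to equal length gave 3 IRF8 IL-4-only peaks in place of 6. Taking every peak within 100000 bp of a start whatever its gene name gave control-only counts of 16 (C/EBPα), 18 (IRF8) and 5 (JUNB), and IL-4-only counts of 6, 18 and 2, over more peaks. Shared sites past 1.5-fold were then 8 for C/EBPα and 25 for IRF8. As a within-list percentile the C/EBPα median difference was -0.127 points, against a log2 ratio of 0.03, so no direction is read from it. The JUNB median log2 ratio stayed between -1.66 and -1.32 and was -58.6 points as a percentile. Regions of 2 or more factors numbered 25 to 27. No paired analysis was possible because each group holds 1 sample and no result comes from a test. Depth is unknown, so a missing peak means not called, not unbound.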
